A study of Mus musculus with 15 samples.

Results

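The genes described here encode 8 members of the S100 family of calcium-binding proteins, namely S100a1, S100a4, S100a6, S100a8, S100a9, S100a10, S100a11 and S100a13. They were chosen by symbol, matched to the Ensembl gene identifiers of the deposited counts, and all 8 were found among the 19456 genes of the table. RNA was sequenced from 15 libraries of cells sorted from adult male wild-type C57BL/6 mice, with no transgene and no treatment in any group. The populations were Ly6Chi blood monocytes (n = 3) and 3 kinds of small intestinal macrophage (n = 4 each), which carried neither Tim-4 nor CD4 (Tim-4-CD4-), CD4 alone (Tim-4-CD4+) or both (Tim-4+CD4+). The macrophages were sorted as CD64+MHCII+ cells after exclusion of lymphocytes, neutrophils, eosinophils and Ly6C+ cells. Each library held cells pooled from 3 mice, or from 4 for monocyte replicate 2, so that the spread between libraries is a spread between pools. The paper describes 4 independent sorts of macrophages, so libraries of the 3 macrophage populations may come from the same pools. The labels do not state which libraries share a sort, and the main fit treated all libraries as unpaired. Libraries are numbered here as in their titles.

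S100 proteins are small proteins with a pair of EF-hands, the helix-loop-helix motifs that hold calcium. Most act as dimers that change shape when calcium binds and then attach to a partner, such as an annexin or a myosin heavy chain. S100A8 and S100A9 form calprotectin, an abundant cytosolic protein of neutrophils and monocytes that binds zinc and manganese and, once released, can act through Toll-like receptor 4. S100A10 is the exception in the family, because its EF-hands no longer bind calcium, and it is held in a tetramer with annexin A2.

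The libraries held 39388763 to 151510641 gene counts each (median 63249039), and the sorting markers followed the labels. Ly6c2 lay between 820.3 and 1545 CPM (counts per 1000000, over library totals scaled with TMM) in monocytes and at or below 3.46 CPM in every macrophage library. Timd4, which encodes Tim-4, was at 336.5 to 389.9 CPM in Tim-4+CD4+ cells and at or below 4.47 CPM elsewhere, and Cd4 was at 483.8 to 924 CPM in both CD4+ populations, 14.5 to 39.2 CPM in Tim-4-CD4- cells and at or below 0.26 CPM in monocytes. The 6 listed macrophage genes, such as the complement subunit gene C1qa, summed to 17018 to 22522 CPM in macrophages and 1175 to 1457 CPM in monocytes. A pair of libraries stood apart in ways that touch S100 genes. Tim-4-CD4+ replicate 1 held more of the blood monocyte markers Ly6c2 (3.46 CPM) and Chil3 (3.79 CPM) than the other libraries of its group, which were at or below 1.07 and 0.513 CPM. Tim-4-CD4- replicate 3 held more Itgae (24.7 CPM), Epcam (10.8 CPM) and Flt3 (17.9 CPM), which mark dendritic or epithelial cells, than its group, in which they were at or below 5.43, 2.51 and 7.57 CPM, and the summed level of 4 dendritic cell markers was 12.9 to 50.8 CPM over the Tim-4-CD4- libraries, at its highest in this one.

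All 8 genes lie on mouse chromosome 3 (GRCm38), in a stretch of 3054 kb from 90511034 to 93564643. S100a1 (90511034 to 90514392, minus strand) and S100a13 (90514435 to 90524581, plus strand) are neighbours that start 43 bases apart and run in opposite directions. S100a4 follows (90603771 to 90606045, plus strand), then S100a6 (90612882 to 90624181, plus strand), S100a8 (90668978 to 90670035, plus strand) and S100a9 (90692632 to 90695721, minus strand). S100a11 (93520488 to 93526287, plus strand) and S100a10 (93555080 to 93564643, plus strand) form a separate pair at the far end. In S100a4, 302 exon bases (51.7% of its exon sequence) are shared with an overlapping annotated gene, Gm42674, on the same strand, so reads there could be assigned in more than one way and its level is less certain. The exons of the other 7 genes overlapped no other gene.

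The promoter windows below, from 250 bases before to 50 bases after the RefSeq start, are shown for the genes that differed most between populations, for S100a8, and for S100a13, whose window shares 204 bases with that of S100a1. Sequences are from RefSeq on GRCm38.p6, are written in the direction of transcription, and were found for 7 of the 8 genes, with none for S100a10. Capitals mark matches, on either strand, to GAGGAA (a core bound by PU.1), TTNNGNAA (C/EBP), TGANTCA (AP-1) or TATAAA (the TATA box). PU.1 and C/EBP proteins are transcription factors of the monocyte lineage.
S100a4, chr3:90603520-90603819, plus strand: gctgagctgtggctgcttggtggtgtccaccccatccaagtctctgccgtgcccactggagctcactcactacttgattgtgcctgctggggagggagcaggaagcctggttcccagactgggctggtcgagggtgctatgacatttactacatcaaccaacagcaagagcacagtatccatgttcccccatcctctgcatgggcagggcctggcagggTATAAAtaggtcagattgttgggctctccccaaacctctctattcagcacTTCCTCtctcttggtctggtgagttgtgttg
S100a6, chr3:90612644-90612943, plus strand: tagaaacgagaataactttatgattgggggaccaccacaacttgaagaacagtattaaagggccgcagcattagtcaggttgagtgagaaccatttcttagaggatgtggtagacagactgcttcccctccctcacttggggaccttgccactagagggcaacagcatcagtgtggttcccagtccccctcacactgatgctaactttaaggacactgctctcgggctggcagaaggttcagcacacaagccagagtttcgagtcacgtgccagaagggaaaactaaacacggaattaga
S100a11, chr3:93520246-93520545, plus strand: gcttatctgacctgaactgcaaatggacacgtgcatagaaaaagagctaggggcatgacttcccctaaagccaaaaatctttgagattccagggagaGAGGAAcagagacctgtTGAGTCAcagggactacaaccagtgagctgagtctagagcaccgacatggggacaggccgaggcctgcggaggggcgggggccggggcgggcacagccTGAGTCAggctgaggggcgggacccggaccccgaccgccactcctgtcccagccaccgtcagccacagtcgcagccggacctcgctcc
S100a8, chr3:90668821-90669120, plus strand: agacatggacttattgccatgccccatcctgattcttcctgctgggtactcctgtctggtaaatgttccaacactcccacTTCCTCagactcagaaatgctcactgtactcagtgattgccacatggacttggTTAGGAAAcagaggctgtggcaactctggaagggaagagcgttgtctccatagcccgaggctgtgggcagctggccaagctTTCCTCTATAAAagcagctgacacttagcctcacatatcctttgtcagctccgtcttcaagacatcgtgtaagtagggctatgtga
S100a13, chr3:90514185-90514484, plus strand: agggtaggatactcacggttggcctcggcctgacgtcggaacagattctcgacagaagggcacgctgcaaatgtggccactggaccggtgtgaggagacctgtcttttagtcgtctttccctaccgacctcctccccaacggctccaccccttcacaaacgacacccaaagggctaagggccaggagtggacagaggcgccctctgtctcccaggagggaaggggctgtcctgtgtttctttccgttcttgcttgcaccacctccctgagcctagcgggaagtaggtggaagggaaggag
The S100a4 window held 1 GAGGAA match and 1 TATAAA match, and the S100a8 window held 2 GAGGAA, 1 TTNNGNAA and 1 TATAAA match, with 1 GAGGAA match directly beside the TATA box. The S100a9 window, not printed, had 2 TTNNGNAA matches and 1 TATAAA match. S100a11 had 2 TGANTCA matches and 1 GAGGAA match, whereas the windows of S100a6, S100a1 and S100a13 held none of the 4 motifs. Over all 32851 RefSeq windows of this length, GAGGAA was found in 28.3%, TTNNGNAA in 40.7%, TGANTCA in 7.81% and TATAAA in 13.6%. No binding was measured here, so a match describes only the letters of the window.

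In monocytes, S100a6, S100a4, S100a11 and S100a10 were abundant, S100a13 and S100a1 were intermediate, and S100a8 and S100a9 were scarce. Per kilobase of the longest annotated transcript, the mean levels in monocytes were 463 CPM per kb for S100a6, 427 for S100a11, 421 for S100a4, 185 for S100a10, 50.1 for S100a13, 23.3 for S100a1, 2.44 for S100a8 and 0.797 for S100a9. The libraries of the first 3 genes overlapped, so their order was not resolved, and it changed when all annotated exons were used as the length, with S100a11 first (427), then S100a4 (359) and S100a6 (265). In Tim-4+CD4+ macrophages the order began instead with S100a1 (29.3 CPM per kb) and S100a13 (22.3), which overlapped, followed by S100a11 (9.84), S100a10 (3.36) and S100a6 (1.90). S100a4 came after these at 0.193 CPM per kb. The libraries of S100a10 and S100a6 overlapped, so the order of S100a10 and S100a6 was not resolved. The summed level of the 8 genes was 878 to 1036 CPM in monocytes, 76.1 to 107 CPM in Tim-4-CD4- cells, 44.2 to 50.9 CPM in Tim-4-CD4+ cells and 38.1 to 56.4 CPM in Tim-4+CD4+ cells. In sorted bulk samples such as these, fewer cells of a type and less RNA per cell cannot be told apart.

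**Figure D1:**
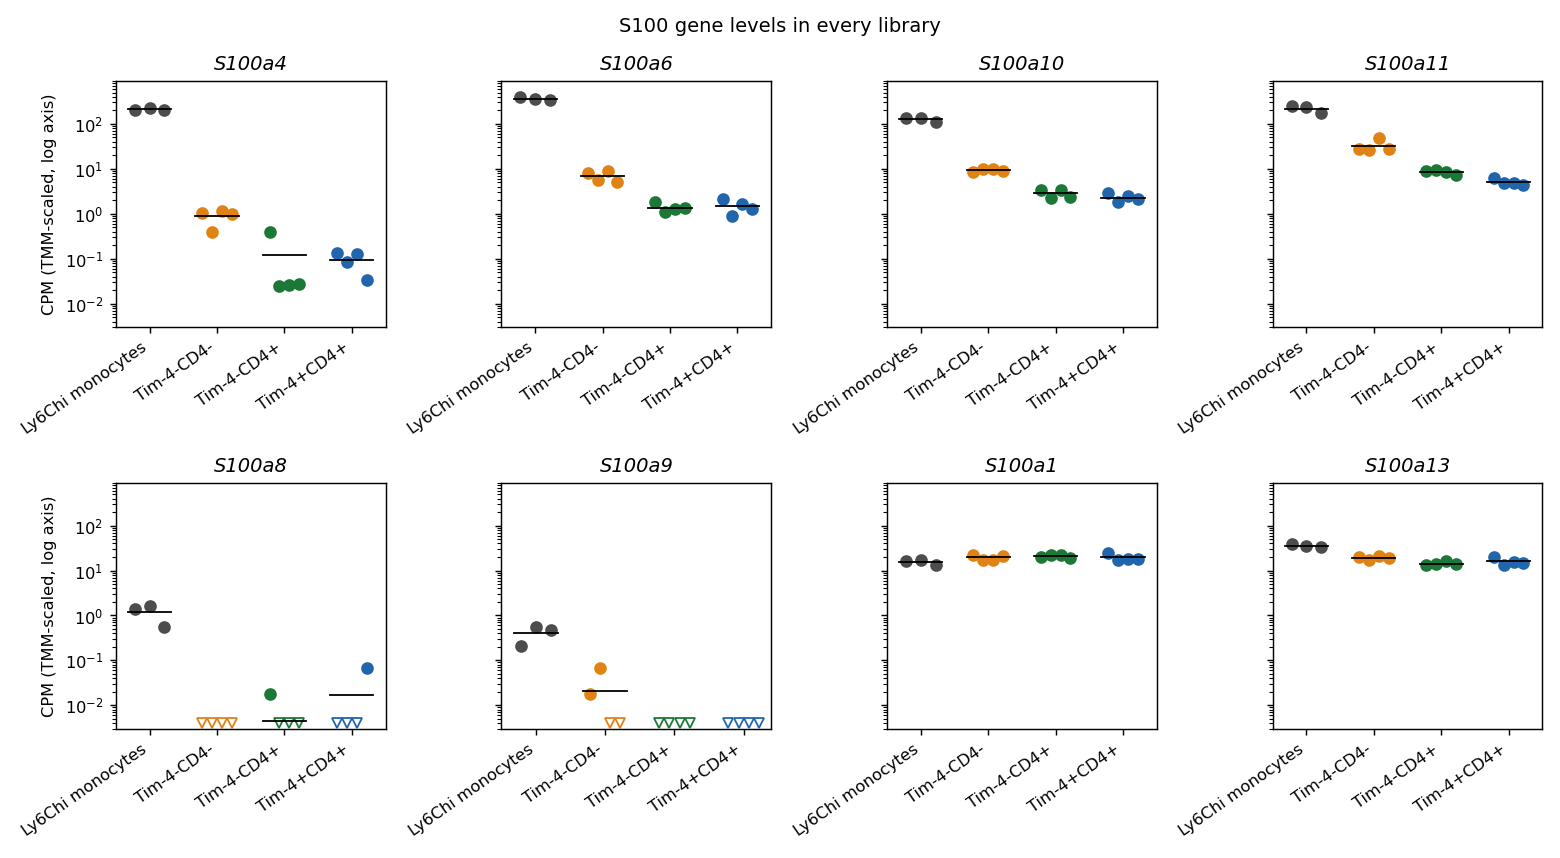
Level of each S100 gene in every library, as TMM-scaled CPM on a log axis, with 1 point per library, bars at the population means and open triangles at the foot of the axis for libraries with 0 counts. The 3 monocyte libraries lie above all 12 macrophage libraries for every gene but S100a1, for which they lie below them. The share of all genes that separate in this way is not given here.

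Compared with monocytes, 7 of the 8 genes were lower in each macrophage population, and S100a1 was the exception. In edgeR's quasi-likelihood test across 15802 genes, with Benjamini-Hochberg adjustment and a threshold of 0.05, the genes called lower in the macrophages numbered 7 in Tim-4-CD4- cells, 7 in Tim-4-CD4+ cells and 7 in Tim-4+CD4+ cells. S100a8 and S100a9, which are in each of these counts, were kept for testing only through their monocyte counts. Over all genes tested, 28.1%, 30.7% and 31.3% were called lower in these populations. S100a1 was called higher in both CD4+ populations, where 39.1% and 39.5% of all genes were called higher. It was not called in Tim-4-CD4- cells, where 37.3% of all genes were. Over the 6 members other than S100a8 and S100a9, whose fitted folds rest on groups at or near 0, the median log2 fold change was -3.26, -5.07 and -5.61 in the 3 comparisons, and that of all genes was 0.08, 0.11 and 0.10. The 3 comparisons share the monocyte libraries. Monocytes came from blood and macrophages from enzyme-digested gut, so population, tissue and preparation cannot be told apart in any comparison with monocytes.

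S100a4, also called metastasin or fibroblast-specific protein, binds non-muscle myosin IIA and is found in motile cells. It had the largest fitted difference from monocytes among the members that had counts in every library. Its level was 199.6, 225 and 203.9 CPM in the 3 monocyte libraries. In Tim-4-CD4- macrophages it was 1.06, 0.402, 1.16 and 1.01 CPM, from 24 to 58 counts per library. Tim-4-CD4+ macrophages had 0.403, 0.0253, 0.0256 and 0.0270 CPM, and Tim-4+CD4+ macrophages had 0.136, 0.0861, 0.129 and 0.0332 CPM, from 1 to 22 counts per library in these 2 groups. The highest of these 8 libraries was Tim-4-CD4+ replicate 1, the library with more Ly6c2 and Chil3, whose part in the result was not tested, and every macrophage library lay far below every monocyte library. The log2 fold change against monocytes was -7.88 (SE 0.39, adjusted p = 2.0e-11 by edgeR) in Tim-4-CD4- cells. It was -11.09 (SE 0.48, adjusted p = 2.7e-12) in Tim-4-CD4+ cells and -11.02 (SE 0.47, adjusted p = 1.9e-12) in Tim-4+CD4+ cells. Without Tim-4-CD4+ replicate 1 the Tim-4-CD4+ value was -12.86, and without replicate 4 it was -10.44.

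S100a6, or calcyclin, binds annexins and the calcyclin-binding protein, and its level tracks growth stimuli in many cells. It was the member with the highest CPM in monocytes, at 393, 351 and 344 CPM. It lay at 7.98, 5.70, 9.08 and 5.20 CPM in Tim-4-CD4- cells, at 1.81, 1.11, 1.25 and 1.33 CPM in Tim-4-CD4+ cells and at 2.14, 0.904, 1.66 and 1.26 CPM in Tim-4+CD4+ cells. The Tim-4-CD4- libraries overlapped with none of the CD4+ libraries, whereas both CD4+ populations overlapped each other. S100a6 was thus 51.9-fold lower than in monocytes in Tim-4-CD4- cells (log2 fold change -5.70, SE 0.25, adjusted p = 4.0e-12 by edgeR), 263-fold lower in Tim-4-CD4+ cells (-8.04, SE 0.28, adjusted p = 1.7e-13) and 244-fold lower in Tim-4+CD4+ cells (-7.93, SE 0.28, adjusted p = 1.6e-13).

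S100a10 and S100a11 encode the partners of annexins A2 and A1. S100a10 was at 134, 134 and 111 CPM in monocytes, and at 8.30, 9.87, 9.77 and 9.14 CPM in Tim-4-CD4- cells. It fell further, to between 2.23 and 3.39 CPM, in Tim-4-CD4+ cells and to between 1.81 and 2.84 CPM in Tim-4+CD4+ cells, and these last 2 populations overlapped. Its log2 fold change against monocytes was -3.77 (SE 0.16, adjusted p = 3.1e-12 by edgeR) in Tim-4-CD4- cells, -5.47 (SE 0.17, adjusted p = 6.2e-14) in Tim-4-CD4+ cells and -5.78 (SE 0.18, adjusted p = 3.3e-14) in Tim-4+CD4+ cells.

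S100a11, also known as calgizzarin, was at 251, 233 and 171 CPM in monocytes. Tim-4-CD4- libraries held 27.3, 26.0, 48.4 and 28.2 CPM, Tim-4-CD4+ libraries held 8.96, 9.66, 8.52 and 7.33 CPM, and Tim-4+CD4+ libraries held 6.11, 4.83, 4.82 and 4.35 CPM. The 4 populations did not overlap, and S100a11 was the only member for which this was so. The share of all genes for which this holds is not given here. The log2 fold change against monocytes was -2.75 (SE 0.20, adjusted p = 2.8e-09 by edgeR) in Tim-4-CD4- cells, -4.67 (SE 0.21, adjusted p = 6.4e-12) in Tim-4-CD4+ cells and -5.44 (SE 0.22, adjusted p = 1.2e-12) in Tim-4+CD4+ cells. Tim-4-CD4- replicate 3, the highest macrophage library, was also the one with more Itgae, Epcam and Flt3, whose part in its S100a11 level was not tested. Without it the first of these values was -2.99.

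**Figure D2:**
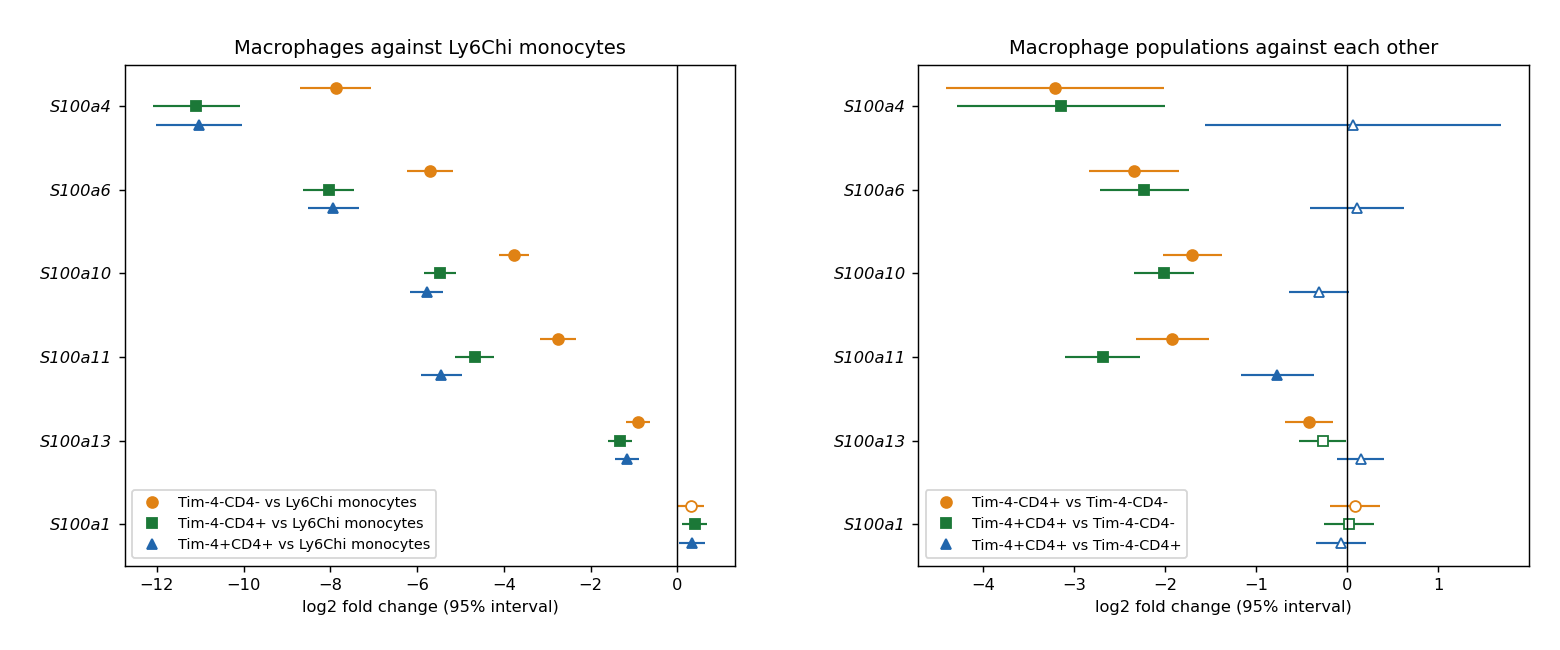
Log2 fold changes with 95% intervals from the edgeR fit for 6 S100 genes, in macrophages against monocytes (left) and between macrophage populations (right), with filled symbols for an adjusted p under 0.05 and open symbols otherwise. S100a4, S100a6, S100a10 and S100a11 lie below 0 in all 3 comparisons with monocytes and in both comparisons with Tim-4-CD4- macrophages.

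S100a8 and S100a9, the calprotectin subunits, were near the limit of detection in the deposited counts. These counts could not be set against the reads here, and they were low in monocyte libraries in which other monocyte genes were high, so the values below are less certain than those of the other members. S100a8 had 201, 171 and 30 counts in the 3 monocyte libraries, or 1.42, 1.66 and 0.557 CPM. It had 0 counts in all 4 Tim-4-CD4- libraries, 1 count in Tim-4-CD4+ replicate 1 and 4 counts in Tim-4+CD4+ replicate 4, and 0 in the other libraries of those groups. S100a9 had 30, 56 and 26 counts in monocytes (0.213, 0.545 and 0.483 CPM), 1 and 4 counts in Tim-4-CD4- replicates 1 and 2, and 0 counts in the remaining 10 macrophage libraries. All monocyte libraries were therefore above all macrophage libraries for both genes, at levels under 2 CPM. Against the 3 counts that an observed 0 allows over the pooled group, S100a8 was at least 89.8-fold higher in monocytes than in Tim-4-CD4- cells (adjusted p = 6.4e-05 by edgeR). Pooled over libraries, S100a8 was 433-fold higher in monocytes than in Tim-4-CD4+ cells (95% exact interval 77.2 to 17131) and 115-fold higher than in Tim-4+CD4+ cells (44.7 to 425), with adjusted p of 5.2e-05 and 9.3e-05 by edgeR. Without the library that held the counts, both groups were at 0 and S100a8 was at least 119.7-fold and at least 127-fold higher in monocytes. For S100a9 the ratio to Tim-4-CD4- cells was 15.01 (6.24 to 47.1), or 52.6 (9.25 to 2095) without replicate 2, with adjusted p = 4.4e-03 by edgeR over all libraries. S100a9 was at least 40.2-fold higher in monocytes than in Tim-4-CD4+ cells and at least 42.8-fold higher than in Tim-4+CD4+ cells, with adjusted p of 3.5e-04 and 2.8e-04 by edgeR. These intervals and bounds cover counting error only. Both genes passed the filter that removes genes with few counts only through the monocyte libraries. Their adjusted p-values are therefore no independent evidence of the difference.

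Genes of neutrophils, the other cells rich in calprotectin, were read beside these values. Of 13 listed neutrophil markers 10 were in the counts, and their summed level was 618 to 683 CPM in monocytes and 1572 to 3454 CPM in the macrophages. In monocytes Retnlg was at 0 and Cxcr2, Ltf, Mpo and Elane were each below 1 CPM in every library. Lcn2 was at 7.64, 7.18 and 2.30 CPM in monocyte replicates 1, 2 and 3 and at or below 0.409 CPM in the macrophages. Mmp9 was at 0.892 to 1.53 CPM in monocytes. Mmp8 was at 144 to 211 CPM, Csf3r at 444 to 461 CPM and Prtn3 at 8.62 to 14.04 CPM in monocytes, where the blood monocyte markers Ccr2 (2243 to 2884 CPM) and Chil3 (891 to 2639.6 CPM) were high. Mmp9 was at 1401 to 3276 CPM and Csf3r at 144 to 200.4 CPM in the macrophages, where they made up most of the sum. The part of neutrophil RNA in the S100a8 and S100a9 counts was not tested.

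S100a1 and S100a13, the head-to-head pair, differed less from monocytes than the other members did, and only S100a1 was not lower in the macrophages. S100A1 is best known from heart and skeletal muscle, where it modulates calcium handling, and S100A13 takes part in the release of fibroblast growth factor 1 and interleukin-1α, which lack a signal peptide. S100a1 was at 16.6, 17.1 and 13.5 CPM in monocytes, at 17.2 to 22.2 CPM in Tim-4-CD4- cells, at 19.1 to 22.1 CPM in Tim-4-CD4+ cells and at 17.4 to 25.1 CPM in Tim-4+CD4+ cells. Every macrophage library was above every monocyte library, but the gap was narrow (17.1 against 17.2 CPM). Its log2 fold change was 0.40 (SE 0.14, adjusted p = 0.019 by edgeR) in Tim-4-CD4+ cells, 0.33 (SE 0.14, adjusted p = 0.043) in Tim-4+CD4+ cells and 0.31 (SE 0.14, adjusted p = 0.063) in Tim-4-CD4- cells. These calls depended on the processing. Without monocyte replicate 3, the lowest library, adjusted p was 0.079 and 0.15 for the CD4+ populations, without Tim-4+CD4+ replicate 1 it was 0.12 for Tim-4+CD4+ cells, and with no scaling of the totals it was 0.090 and 0.15. In a fit of monocytes and Tim-4+CD4+ cells only it was 0.071. Conversely the Tim-4-CD4- difference passed the threshold when monocyte replicate 2, Tim-4-CD4- replicate 2 or 3, or Tim-4+CD4+ replicate 1 was left out (adjusted p from 0.018 to 0.049), and under 7 of the 11 other alternatives.

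S100a13 was lower in macrophages, by less than the genes above. It was at 39.8, 34.8 and 32.9 CPM in monocytes and at 16.9 to 21.4 CPM in Tim-4-CD4- cells, 13.03 to 16.02 CPM in Tim-4-CD4+ cells and 13.1 to 20.0 CPM in Tim-4+CD4+ cells. No macrophage library reached the lowest monocyte library. The log2 fold change was -0.90 (SE 0.13, adjusted p = 1.3e-05 by edgeR), -1.32 (SE 0.13, adjusted p = 1.3e-07) and -1.17 (SE 0.13, adjusted p = 5.2e-07), in that order. The ratio of S100a1 to S100a13 CPM within a library was thus 0.411 to 0.492 in monocytes, 0.804 to 1.15 in Tim-4-CD4- cells, 1.36 to 1.55 in Tim-4-CD4+ cells and 1.18 to 1.32 in Tim-4+CD4+ cells.

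The question within the gut was how far the S100 genes differed among macrophages of the 3 phenotypes. In Tim-4-CD4+ against Tim-4-CD4- cells, 5 of the 8 genes were called lower by edgeR, where 5.53% of all genes were called lower and 4.52% higher. In Tim-4+CD4+ against Tim-4-CD4- cells 4 were called lower (11.9% of all genes were lower and 11.3% higher), and between both CD4+ populations 1 was lower in Tim-4+CD4+ cells (1.34% of all genes lower, 2.07% higher). The median log2 fold change of the 6 genes other than S100a8 and S100a9 was -1.81, -2.12 and 0.00 in these comparisons, against -0.00 for all genes in each. The comparisons share libraries, and their values are given side by side only.

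S100a4 was 9.27-fold lower in Tim-4-CD4+ than in Tim-4-CD4- cells (log2 fold change -3.21, SE 0.56, adjusted p = 1.3e-03 by edgeR), with 1 overlap, since Tim-4-CD4+ replicate 1 (0.403 CPM) stood just above Tim-4-CD4- replicate 2 (0.402 CPM). Without Tim-4-CD4+ replicate 1 the log2 fold change was -5.00, and without Tim-4-CD4+ replicate 4 it was -2.58. Against the same cells S100a4 was 8.85-fold lower in Tim-4+CD4+ macrophages (-3.15, SE 0.54, adjusted p = 4.1e-04), with no overlap. S100a6 was 5.07-fold lower in Tim-4-CD4+ cells (adjusted p = 7.3e-06 by edgeR) and 4.70-fold lower in Tim-4+CD4+ cells (adjusted p = 2.3e-06), also with no overlap. For S100a10 the fold was 3.26 (adjusted p = 2.3e-06 by edgeR) and 4.03 (adjusted p = 9.1e-08), and for S100a11 it was 3.78 (adjusted p = 6.2e-06) and 6.44 (adjusted p = 4.7e-08). Each of these genes was thus highest in Tim-4-CD4- cells among the macrophages. Without Tim-4-CD4- replicate 3 the S100a11 log2 fold changes went from -1.92 to -1.66 and from -2.69 to -2.42 and were still called.

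S100a13 was 1.34-fold lower in Tim-4-CD4+ than in Tim-4-CD4- cells (log2 fold change -0.42, SE 0.12, adjusted p = 0.039 by edgeR), with no overlap. That call was lost under 12 of 26 alternatives, among them leaving out any of 9 single libraries (monocyte replicates 2 and 3, Tim-4-CD4- replicates 1, 3 and 4, Tim-4-CD4+ replicates 1, 2 and 4, and Tim-4+CD4+ replicate 3), with adjusted p from 0.0085 to 0.14 over the 26. In Tim-4+CD4+ against Tim-4-CD4- cells its log2 fold change was -0.27 (adjusted p = 0.13 by edgeR), but 0.011 was reached without Tim-4+CD4+ replicate 1. S100a1 did not pass the test in any of the 3 comparisons, with log2 fold changes of 0.09 (95% interval -0.19 to 0.36), 0.02 (-0.25 to 0.30) and -0.07 (-0.34 to 0.21).

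Between both CD4+ populations, S100a11 was the only member called, at 1.70-fold lower in Tim-4+CD4+ cells (log2 fold change -0.77, SE 0.19, adjusted p = 0.032 by edgeR). All 4 Tim-4+CD4+ libraries lay below all 4 Tim-4-CD4+ libraries. The call was lost without Tim-4-CD4+ replicate 1, 2 or 3 or Tim-4+CD4+ replicate 2, 3 or 4, with log2 fold changes from -0.76 to -0.70 and adjusted p from 0.070 to 0.11. For the others the test left a range of values open. The 95% interval of the log2 fold change was -0.64 to 0.02 for S100a10 (Tim-4+CD4+ against Tim-4-CD4+), -0.41 to 0.63 for S100a6, -1.56 to 1.69 for S100a4 and -0.11 to 0.41 for S100a13. S100a8 and S100a9 were at or near 0 in all macrophage populations and no fold between them is given.

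Markers of blood monocytes were read beside the S100 genes. The summed level of 5 such markers was 6467 to 8405 CPM in monocytes, 554 to 828 CPM in Tim-4-CD4- cells, 75.5 to 134 CPM in Tim-4-CD4+ cells and 13.4 to 25.5 CPM in Tim-4+CD4+ cells. Ccr2, the receptor that carries monocytes into tissue, made up most of the sum in Tim-4-CD4- cells (510.2 to 759 CPM). As a share of the monocyte mean, the median over the Tim-4-CD4- libraries was 0.149% for Ly6c2, 0.0780% for Chil3 and 0.310% for Vcan, but 3.26% for Plac8 and 26.1% for Ccr2. The corresponding shares were 0.493% for S100a4, 1.88% for S100a6, 7.47% for S100a10, 12.7% for S100a11 and 53.8% for S100a13. Each of these S100 medians was above those of Ly6c2, Chil3 and Vcan, although the S100a4 libraries (0.192% to 0.555%) overlapped those of Ly6c2 and Vcan. In Tim-4+CD4+ cells the medians were 0.0512% for S100a4, 0.402% for S100a6, 1.80% for S100a10 and 2.21% for S100a11, beside 0.0265% for Chil3, 0.0569% for Ly6c2, 0.245% for Ccr2, 0.284% for Vcan and 0.407% for Plac8, so that S100a4 stood below all of these but Chil3 and S100a6 just below Plac8. In these cells the S100a4 libraries (0.0158% to 0.0650%) overlapped those of Ly6c2 and Chil3. The S100a6 libraries (0.249% to 0.590%) overlapped those of Plac8, so these orders were not resolved. The part of carried-over monocyte RNA in the S100a4 and S100a6 levels was not tested.

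**Figure D3:**
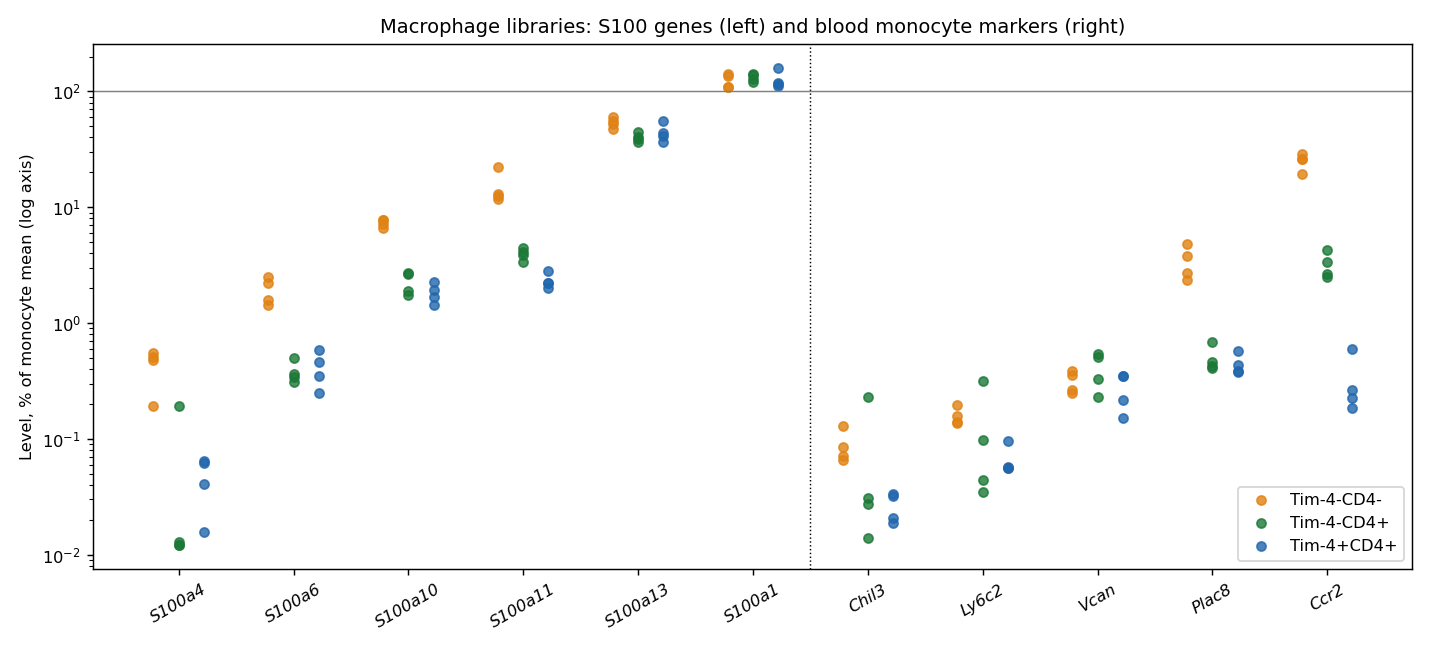
Level in each macrophage library as a percent of the monocyte mean, on a log axis, for 6 S100 genes and 5 blood monocyte markers, with 1 point per library and the grey line at 100%. S100a4 lies between 0.0121% and 0.555%, the medians of S100a10 and S100a11 lie between those of Plac8 and Ccr2 in Tim-4-CD4- cells, and S100a1 lies above 100% in every library.

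Anxa2 and Anxa1, the annexins that bind S100A10 and S100A11, were also lower in the macrophages. Anxa2, which holds S100A10 at the membrane, was at 1050.1, 963 and 818 CPM in monocytes, at 38.4 to 44.4 CPM in Tim-4-CD4- cells, at 7.75 to 11.5 CPM in Tim-4-CD4+ cells and at 4.96 to 7.49 CPM in Tim-4+CD4+ cells. Its log2 fold change against monocytes was -4.50, -6.66 and -7.33 in the 3 macrophage populations, with adjusted p of 2.6e-13, 5.6e-15 and 2.3e-15 by edgeR. Among the macrophages Anxa2 was lower in both CD4+ populations than in Tim-4-CD4- cells (log2 fold change -2.16 and -2.83, adjusted p = 1.4e-07 and 1.1e-09) and lower in Tim-4+CD4+ than in Tim-4-CD4+ cells (-0.67, adjusted p = 0.011). As a description, the ratio of S100a10 to Anxa2 CPM within a library went from 0.128 to 0.139 in monocytes to 0.206 to 0.238, 0.263 to 0.352 and 0.340 to 0.428 in the macrophages in the same order. Anxa1, a phospholipid-binding protein with anti-inflammatory actions that binds S100A11, was at 252 to 370 CPM in monocytes and at 19.2 to 25.4, 5.87 to 7.79 and 1.34 to 2.54 CPM in the macrophages. The 4 populations did not overlap for Anxa1, as for S100a11, and the ratio of S100a11 to Anxa1 CPM was 0.631 to 0.833 in monocytes and 1.11 to 2.17, 1.24 to 1.33 and 2.41 to 3.23 in the macrophages. The other listed annexins, Anxa6 and Anxa11, differed less from monocytes (log2 fold change of Anxa6 -0.32, -0.29 and -0.06 and of Anxa11 -0.65, -0.62 and -0.46), and the Anxa6 value in Tim-4+CD4+ cells did not pass the test (adjusted p = 0.59 by edgeR).

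**Figure D4:**
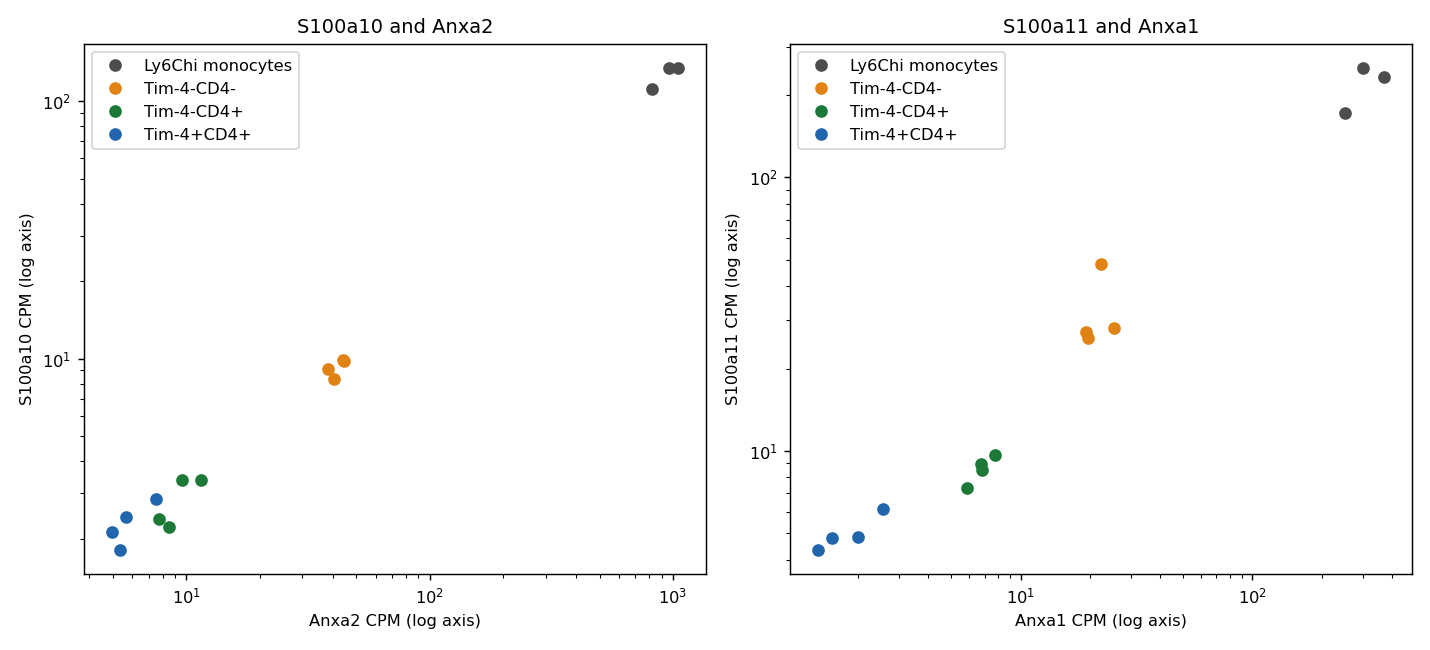
S100a10 against Anxa2 (left) and S100a11 against Anxa1 (right), as TMM-scaled CPM on log axes with 1 point per library. Monocytes lie at the upper right and Tim-4+CD4+ macrophages at the lower left of both panels, and the 15 libraries share depth and scaling between the axes.

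Of 9 listed binding partners of S100 proteins, edgeR called 7 lower and 1 higher in Tim-4-CD4- cells than in monocytes, 7 lower and 1 higher in Tim-4-CD4+ cells and 6 lower and 1 higher in Tim-4+CD4+ cells, with median log2 fold changes of -0.44, -0.62 and -0.52. Over all genes tested, 28.1%, 30.7% and 31.3% were lower and 37.3%, 39.1% and 39.5% higher in these comparisons. The largest falls were in Anxa2 and Anxa1 (log2 fold change of Anxa1 -3.83, -5.51 and -7.35, adjusted p at or below 1.1e-11). The rise was in Ppp5c, a protein phosphatase (0.53, 0.52 and 0.74, adjusted p at or below 2.4e-05). Between macrophages, 3 partners were lower in Tim-4-CD4+ than in Tim-4-CD4- cells, 3 lower and 1 higher in Tim-4+CD4+ than in Tim-4-CD4- cells, and 2 lower in Tim-4+CD4+ than in Tim-4-CD4+ cells. Of all genes, 5.53%, 11.9% and 1.34% were lower and 4.52%, 11.3% and 2.07% higher in these. Anxa1 and Anxa2 were called in all 3, with Anxa1 at -1.68, -3.52 and -1.84 on the log2 scale (adjusted p at or below 8.7e-06), and the gene called higher was Anxa6, another annexin (0.27, adjusted p = 0.026).

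Cd14 rose most among the receptors for released S100 proteins. Of 8 listed receptors and coreceptors, 4 were higher and 2 lower in Tim-4-CD4- cells than in monocytes, 5 higher and 2 lower in Tim-4-CD4+ cells, and 4 higher and 2 lower in Tim-4+CD4+ cells. These shares were not far from those of all genes, of which 37.3%, 39.1% and 39.5% were higher and 28.1%, 30.7% and 31.3% lower. Cd14, the coreceptor of Toll-like receptor 4, was at 30.5 to 38.3 CPM in monocytes and at 552 to 1257 CPM in the macrophages (log2 fold change 5.04, 4.59 and 4.17, adjusted p at or below 2.1e-13 by edgeR). Cd36, a scavenger receptor, was the next largest rise in Tim-4-CD4- cells (2.66, adjusted p = 7.4e-11), and Cd33, a Siglec that can bind S100A9, was the next in the CD4+ populations (2.48 and 2.28, adjusted p at or below 4.8e-11). The falls were in Ager, which encodes RAGE (-1.39, -1.31 and -1.56, adjusted p at or below 0.030, at most 2.97 CPM), and in the adaptor Myd88 (-0.85, -1.09 and -1.08, adjusted p at or below 5.2e-06). Between macrophages, where 5.53% of all genes were lower in the first comparison and 11.9% in the second, Cd14 and Cd36 were lower in Tim-4-CD4+ than in Tim-4-CD4- cells (-0.45 and -0.78, adjusted p = 0.019 and 5.1e-04) and in Tim-4+CD4+ than in Tim-4-CD4- cells (-0.87 and -0.67, adjusted p = 3.7e-05 and 6.9e-04). Between the CD4+ populations 0 of 8 were called by edgeR, where 1.34% of all genes were lower and 2.07% higher. Of the 8, 1 had an unadjusted p under 0.05 by edgeR and 1 was called by DESeq2. The median log2 fold change of the list was 0.40, 0.50 and 0.43 against monocytes.

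EF-hand proteins outside the family moved in both directions. Of 16 listed, 8 were lower and 3 higher in Tim-4-CD4- cells than in monocytes, 8 lower and 4 higher in Tim-4-CD4+ cells, and 8 lower and 3 higher in Tim-4+CD4+ cells, beside 28.1%, 30.7% and 31.3% of all genes lower and 37.3%, 39.1% and 39.5% higher. The largest falls were in Capn2, the catalytic subunit of m-calpain (log2 fold change -2.33, -2.86 and -3.58, adjusted p at or below 7.2e-12 by edgeR), and Chp1 (-0.94, -1.14 and -1.31, adjusted p at or below 2.2e-07). Aif1, the macrophage protein IBA1, had the largest rise (2.61, 2.70 and 2.84, adjusted p at or below 2.5e-08). Between macrophages 1 was lower and 1 higher in Tim-4-CD4+ than in Tim-4-CD4- cells, 2 lower and 1 higher in Tim-4+CD4+ than in Tim-4-CD4- cells, and 1 lower in Tim-4+CD4+ than in Tim-4-CD4+ cells, where 5.53%, 11.9% and 1.34% of all genes were lower and 4.52%, 11.3% and 2.07% higher. Capn2 fell in each (-0.53, -1.25 and -0.72, adjusted p at or below 1.9e-03). The median log2 fold change of this list against monocytes was -0.14, -0.19 and -0.21.

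A further 4 S100 genes were in the counts at low level. S100a16 had 0 counts in all 3 monocyte libraries and 0.347 to 1.77 CPM in the macrophage libraries. S100b, known from glia, had 0 counts in monocytes and at most 0.259 CPM in macrophages. S100g, the intestinal calbindin that epithelial cells use in calcium uptake, had 0 counts in monocytes and at most 0.473 CPM in macrophages. S100a7a was at or below 0.0730 CPM everywhere. S100a2, S100a3, S100a5, S100a7l2, S100a14 and S100z were not found among the genes of the counts, so no level is given for them. Of the marker lists for enteric glia (4 of 5 genes in the counts) and intestinal epithelium (10 of 10), the summed levels were 0.0496 to 0.149 and 1.95 to 2.79 CPM in monocytes and 0.824 to 3.08 and 13.7 to 32.5 CPM in macrophages. Their part in the S100b and S100g levels was not tested. The summed level of 5 mesenchymal markers was at or below 0.0283 CPM in monocytes and 59.6 to 90.1, 71.5 to 93.2 and 98.4 to 138 CPM in the 3 macrophage populations, and that of the 3 eosinophil markers in the counts, of 4 listed, was 0.167 to 0.687 CPM in monocytes and 5.66 to 9.87, 9.28 to 11.2 and 12.01 to 17.9 CPM in the macrophages. S100a4, which fibroblasts can also express, was lower in these libraries than in monocytes, and the part of mesenchymal or eosinophil RNA in the S100 levels was not tested. Between the first and the last S100 gene of chromosome 3, the annotation places 61 protein-coding genes whose symbol in it does not begin with S100a. Of these only Gm9774 and Tchh had counts enough to be tested, neither above 1.22 CPM in any library. Against monocytes, Tchh was called lower in all 3 macrophage populations and Gm9774 in Tim-4-CD4+ cells only, where adjusted p was 0.049 by edgeR. Of all genes tested, 28.1%, 30.7% and 31.3% were called lower in the 3 comparisons with monocytes. Tchh was also higher in Tim-4+CD4+ than in Tim-4-CD4- cells (adjusted p = 0.0026 by edgeR), where 11.3% of all genes were higher.

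The genes whose pattern over the 15 libraries was most like that of each member were found by the root mean square (RMS) difference of log2 CPM (prior count 2), each gene centred on the mean of its 4 population means. For S100a10 they were Glipr2 (RMS difference 0.23) and Alox5ap (0.24), which encodes the protein that presents arachidonic acid to 5-lipoxygenase. For S100a11 they were Tmsb10 (0.27), an actin-binding thymosin, and Bri3bp (0.30). For S100a6 they were Plac8 (0.40) and Ifitm6 (0.43), and for S100a4, with its few counts in macrophages, Hp (0.78), which encodes haptoglobin, and F10 (0.96), which encodes coagulation factor X. Closer matches were found for the genes that varied least, Cfap126 (0.09) and Mettl21a (0.13) for S100a1 and Snrpb (0.09) and Rpl36al (0.09) for S100a13. The matches of S100a8 (Apol7d, 0.39, and Ctsg, 0.56) and S100a9 (Tnfsf13, 0.36, and Gm39121, 0.38) rest on few counts.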

How the data were processed

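RNA was sequenced from Ly6Chi blood monocytes and 3 populations of small intestinal macrophages (15 libraries), grouped by GEO title. The 8 genes and all gene lists were chosen with earlier results of these data known. The authors trimmed reads (Trimmomatic 0.36), aligned them with STAR to GRCm38.p4 and deposited raw counts per gene, made with HTSeq 0.6.1p1 against GENCODE vM11, per the submitters' notes and methods. The strand setting of the counting was not given in the sources used here. A further 15 deposited columns, the same counts divided by 1 factor per library, were not used. Summed over the libraries, the smallest gene total was 16 reads.

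Gene positions and lengths came from a later GENCODE release on GRCm38, and promoters from RefSeq. Low genes were removed by edgeR's filterByExpr (15802 genes kept) and totals were scaled with TMM. A single edgeR quasi-likelihood fit (edgeR 4.0.16, R 4.3.3) gave the 6 pairwise comparisons. P-values were adjusted by Benjamini-Hochberg within each. They measure only the spread between pools of mice. The exact intervals of the pooled S100a8 and S100a9 ratios and the 3-count floor cover counting error only. The intervals of log2 fold changes come from the edgeR fit and, like its p-values, include the spread between libraries. Alternatives were DESeq2 1.42.0, other scaling, filters, replicate blocks, thinned counts and each library left out.

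All 8 members were described, with the 3 partner, receptor and EF-hand lists by counts and the 2 genes nearest in pattern. From the lists, Anxa2 was always named, with at most 2 genes per direction by size of change. Against monocytes, Anxa6 and Anxa11 were named outside this rule, as the other listed annexins. Single marker genes were named after their values were seen. A further gene of the blood monocyte list is not reported here.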

Additional observations from a re-analysis of the deposited data

Results flagged for a closer look

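In 21 groups of 4 libraries with any counts, the highest or lowest library was compared with the range of its group by Dixon's criterion at the 95% level, which chance passes in about 5 of 100 groups. The criterion was met 5 times. S100a4 in Tim-4-CD4+ replicate 1 was at 0.403 CPM (22 counts), against a median of 0.0256 CPM in the other 3 libraries, and the same library had the highest Ly6c2 and Chil3 of its group. S100a8 in that library was at 0.0183 CPM, from 1 count, and S100a8 in Tim-4+CD4+ replicate 4 was at 0.0663 CPM, from 4 counts, with 0 in the others of each group. Where 3 libraries are at 0 the criterion is met by any count in the fourth, so the stated rate does not apply to these S100a8 values. S100a11 in Tim-4-CD4- replicate 3 was at 48.4 CPM, against a median of 27.3 CPM in the others, and S100a1 in Tim-4+CD4+ replicate 1 was at 25.1 CPM, against 18.3 CPM.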

How the results depend on the processing

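Each result was recomputed under up to 26 alternatives, of which 15 left out 1 library. Against monocytes and against Tim-4-CD4- cells, the number of S100 genes called stayed within 1.5 times its main value under all 26. Leaving out libraries gave 7 to 8 genes in each comparison with monocytes and 4 to 5 in each with Tim-4-CD4- cells. The single call between both CD4+ populations became 0 with the replicate block by description numbers (S100a11, log2 fold change -0.77, adjusted p = 0.053 by edgeR), and 0 to 1 when a library was left out. The calls of S100a4, S100a6, S100a10, S100a11 and S100a13 against monocytes, and of the first 4 of these against Tim-4-CD4- cells, were kept under all 26. A sign changed only where the main test had made no call. For S100a4 between the CD4+ populations (main 0.07) the log2 fold change was -0.37 with thinned counts and -0.25 with DESeq2, and -0.55 to 1.86 when a library was left out. The last range was -0.15 to 0.32 for S100a6 and -0.20 to 0.0017 for S100a1 in that comparison, and -0.11 to 0.10 for S100a1 in Tim-4+CD4+ against Tim-4-CD4- cells. The median log2 fold change of all genes against monocytes moved by -0.13, -0.12 and -0.10 with no scaling and by 0.11 in Tim-4+CD4+ cells with upper-quartile factors. A filter at a mean of 1 CPM left S100a8 and S100a9 untested. Against monocytes, S100a8 had values under 25 alternatives and S100a9 under 24. S100a4 between the CD4+ populations had values under 25. CPM over unscaled totals moved 1 of 29 group means by more than 1 SD. Titles and descriptions number the Tim-4-CD4+ libraries differently. Same-numbered libraries deviated together with correlations of -0.12 to 0.13 by titles (0 of 12 libraries best with their own number) and -0.09 to 0.16 by descriptions (5 of 12), so neither numbering established pairs, and the replicate block by title numbers left the single call at 1. The cause of these changes was not tested. Depth limits S100a8, S100a9 and the S100a4 values of the CD4+ macrophages, which rest on few counts.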

Other observations

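In monocytes S100a8 and S100a9 had lower mean levels than many genes: 46.2% and 40.6% of the 19456 genes were lower still, against 97.7% for S100a6 and 95.4% for S100a4. Their longest annotated transcripts (498 and 519 bases) were about as long as that of S100a4 (498 bases), which was abundant. Of 93 protein-coding genes with a longest transcript of at most 519 bases, 10 were above 100 CPM in monocytes, led by Cd52 (503 CPM), Rplp1 (392 CPM) and Ifi27l2a (309 CPM). This comparison was chosen after the values were seen.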
